A study of Mus musculus with 8 samples.

Results

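Collagens are the triple-helical proteins of the extracellular matrix, and their genes were followed across 2 days of culture and 2 genotypes in motor neurons made from male mouse embryonic stem cells. A gene was taken as a collagen when its symbol, found through the RefSeq accession that a probe carries, was Col, a number, the letter a and a number. The RefSeq table names 44 such genes. The array held 61 probes for 42 of them, and 31 genes kept at least 1 probe, meaning a probe that cleared background on each of the 2 arrays of some group. These 31 genes stood among 24633 genes tested, of which 15037 had a symbol.

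A probe was found but not kept for 11 collagen genes: Col4a3, Col6a4, Col6a5, Col6a6, Col9a3, Col10a1, Col13a1, Col15a1, Col19a1, Col24a1 and Col28a1. Col6a3 and Col12a1 had no named probe and were not analysed here. Of the 31 kept genes, 27 were well above background on all 8 arrays. Col4a4, Col8a1, Col17a1 and Col25a1 were not, so their presence among the 31 rests on the groups in which they were measured.

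The study compared control cells with cells that carry a knockout of Litchi, sampled on day 7 and on day 9 of differentiation, with 2 arrays for each of the 4 groups. The sample titles name an Hb9GFP background for control and knockout cells alike. All cultures received retinoic acid and Sonic hedgehog from day 2 until embryoid bodies were dissociated on day 5, and then GDNF until sampling. The labels do not say if the knockout is 1 clone or if replicates were grown apart. The p-values therefore rest on differences between arrays that may be technical.

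Each collagen chain contains repeats of glycine and 2 further residues, and 3 chains wind into a helix in the endoplasmic reticulum after prolyl and lysyl residues are hydroxylated. Fibrillar collagens are trimmed outside the cell and cross-linked into fibrils, collagen IV and the short-chain collagens form sheets, and collagen VI forms beaded filaments. Fibril-associated collagens decorate the surface of fibrils, and transmembrane collagens stay anchored in the plasma membrane. In the nervous system, collagens are known mainly from basement membranes, the meninges, blood vessels and connective tissue sheaths rather than from neurons.

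A level is given here as the log2 processed signal minus the 75th percentile of the same array, so that 0 is the brightness of that percentile. Levels of 1 gene are compared between arrays, and levels of different genes are not compared, since probes differ in brightness. That percentile ran from 649 to 1691 intensity units over the 8 arrays, and it was higher on every array of replicate 1 than on any of replicate 2. Arrays of the same group correlated at r = 0.989 to 0.994 across genes, and arrays of different groups at 0.962 to 0.988. Litchi was found 0 times among the gene names, so the targeted gene was not checked, and Mnx1, the gene that Hb9 denotes, was not analysed here.

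Markers of the labelled cell type and of other cells were measured on the same arrays. All 10 listed motor neuron markers were kept, and their summed level, in multiples of the 75th percentile, ran from 167 to 192 on control arrays and 131 to 157 on knockout arrays of day 7, and from 62.2 to 89.3 and 33.5 to 37.1 on day 9. On day 9 limma called 1 of these 10 markers higher in knockout cells and 4 lower, against 1.5% and 3.96% of all genes. All 12 fibroblast and mesenchyme markers were kept. The sum of these was 3.45 to 4.56 in control cells and 7.57 to 10.7 in knockout cells on day 7, and 4.75 to 5.45 and 9.55 to 9.76 on day 9, so knockout arrays were higher on both days with no overlap. The other marker lists, in the order control day 7, knockout day 7, control day 9 and knockout day 9, summed to 160 to 248, 117 to 128, 149 to 188 and 111 to 120 for 6 of 10 trophoblast markers, and to between 8.24 and 10.7 on all 8 arrays for 7 of 10 endothelium markers (without Tie1, Cldn5 and Erg). They summed to 14.7 to 17.1, 12.0 to 12.4, 6.98 to 9.46 and 7.28 to 8.79 for 7 of 8 neural crest and Schwann cell markers. The sums were 4.38 to 5.95, 4.62 to 5.15, 5.48 to 9.13 and 6.35 to 8.24 for 9 of 10 endoderm markers, and 332 to 451, 304 to 374, 382 to 460 and 398 to 464 for 7 of 8 radial glia and astrocyte markers. A sum can rest on 1 gene: Gcm1 made up at least 98.9% of the trophoblast sum on every array and Ngfr 88.7% to 95.5% of the neural crest sum, while Fabp7 and Vim together led the glial one, at 38.7% to 47.4% and 31.0% to 36.7%. Nefl made up 49.8% to 66.4% of the motor neuron sum, and Egfl7 and Kdr together led the endothelium one, at 59.0% to 73.1% and 24.0% to 37.0%. In the mean of both days limma called 1 of the 7 endothelium markers higher in knockout cells and 2 lower, against 5.48% and 9.35% of all genes. Emcn had the highest mean effect of the 7, at 1.60, and cleared background on both arrays only in the knockout groups. All 6 trophoblast markers had a negative change in knockout cells on both days. On day 9 limma called 4 of them lower, against 3.96% of all genes. Tpbpb, 1 of the 6, cleared background on every control array and on no knockout array. Its place among the 6 thus rests on the groups where it is high. The neural crest sum, led by Ngfr, was lower in knockout cells on day 7 without overlap, and on day 9 the genotypes overlapped. Single markers did not all follow that sum. In the mean of both days limma called 1 of the 7 higher in knockout cells and 0 lower. Tfap2b had the highest mean effect of these 7, at 3.12. Only 1 array of each control group cleared background for Tfap2b, so it was kept through the knockout groups. Of the 7 glial markers, 1 rose and 1 fell with day in control cells, against 4.11% and 3.26% of all genes, and 3 rose in knockout cells, against 4.14%. The rises were led by Aldh1l1, a folate enzyme of astrocytes (2.22 ± 0.44 and 3.78 ± 0.44). Hes5, a Notch target of neural progenitors, was the 1 glial marker called higher in knockout cells on day 9 (1.85 ± 0.34), against 1.5% of all genes. The part of the glial markers in the collagen changes was not tested. In bulk cultures, fewer cells of a type and less RNA per cell cannot be told apart.

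The summed level of the 31 collagen genes was 80.4 to 96.3 in control cells and 98.2 to 129 in knockout cells on day 7. On day 9 it was 113 to 120 in control cells and 168 to 171 in knockout cells. The knockout arrays did not overlap the control arrays of the same day, and in both genotypes the day 9 arrays lay above those of day 7. Col18a1 made up 11.8% to 37.9% of this sum and Col1a2 12.0% to 28.7%. The 10 fibrillar genes summed to 21.6 to 30.3, 40.5 to 55.6, 45.7 to 47.6 and 75.8 to 88.3 in control day 7, knockout day 7, control day 9 and knockout day 9.

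**Figure D1:**
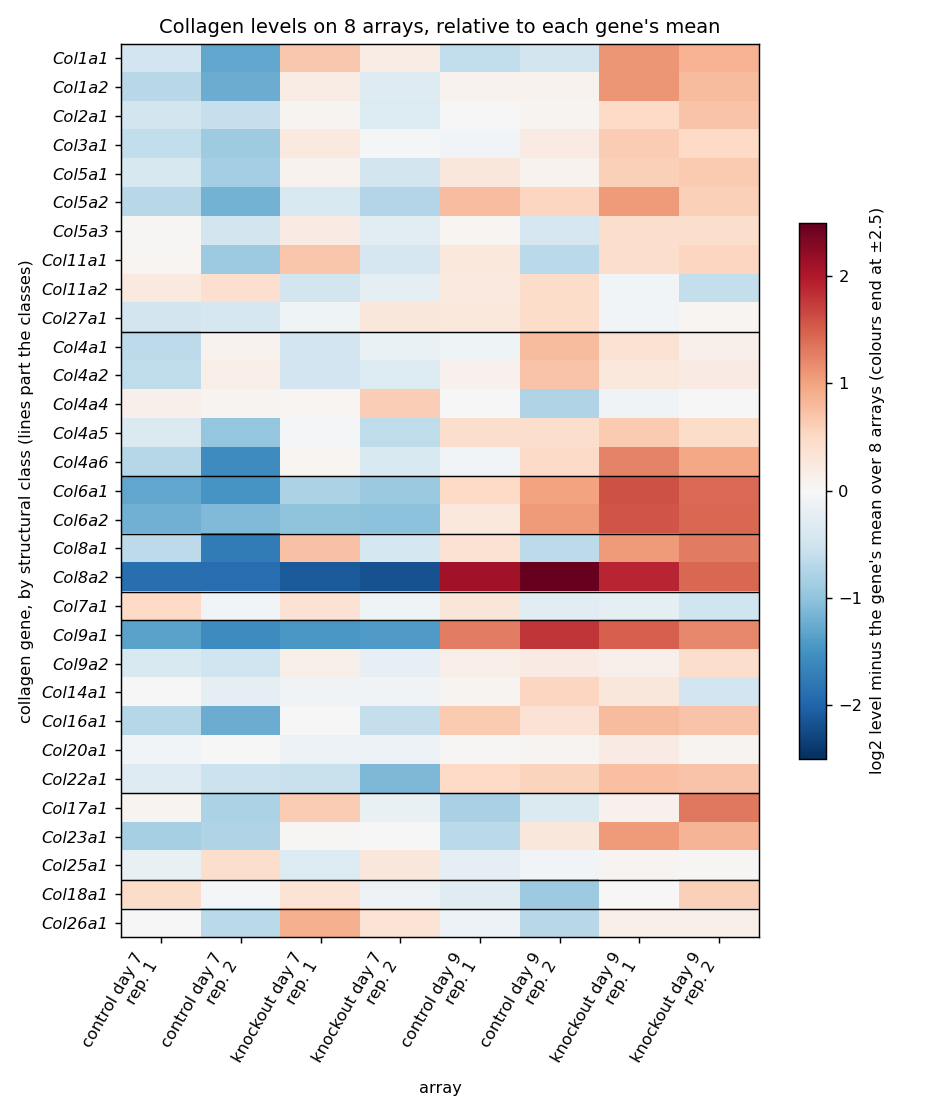
Colour map of the 31 collagen genes (rows, parted by structural class) on 8 arrays (columns). Colour is the log2 level minus the mean of that gene over the 8 arrays, red for higher and blue for lower. Col8a2, Col9a1, Col6a1 and Col6a2 part the days most clearly, and Col1a1 is highest on the 4 knockout arrays.

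Collagen RNA was first compared between day 9 and day 7 within each genotype. In control cells 9 of 31 collagen genes rose and 0 fell, against 7.36% of all genes tested that were called, 4.11% higher and 3.26% lower. In knockout cells 6 rose and 0 fell, against 8.31% of all genes called, 4.14% higher and 4.17% lower. At an unadjusted p under 0.05, 15 collagen genes were higher and 1 lower on day 9 in control cells, beside 26.1% of all genes in either direction, and 14 were higher and 0 lower in knockout cells, beside 26.0%. The 6 called in knockout cells (Col5a2, Col6a1, Col6a2, Col8a2, Col9a1 and Col22a1) were all among the 9 called in control cells, the others being Col3a1, Col16a1 and Col27a1. The median log2 change of the 31 genes was 0.63 in control cells, beside -0.12 over all genes, and 0.58 in knockout cells, beside -0.12. Day 9 lay above day 7 with no overlap in 19 of the 31 genes in control cells, where this held for 18.9% of all genes, and in 20 in knockout cells, where it held for 22.1%. Day 9 lay below day 7 with no overlap in 2 collagen genes in control cells, against 35.9% of all genes, and in 3 in knockout cells, against 36.0%.

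The tests were made with limma on 2 arrays a group, and the count depended on single arrays. With control day 7 replicate 2 left out, the 9 calls in control cells fell to 1, and leaving out control day 9 replicate 2 gave 4. Leaving out control day 7 replicate 1, control day 9 replicate 1 or a knockout array of day 9 gave 5 in each case. The 6 calls in knockout cells stayed between 4 and 7. Over all genes the calls with day also fell when 1 array was left out. They went from 1814 to between 8 and 1306 in control cells, and from 2047 to between 438 and 1996 in knockout cells.

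**Figure D2:**
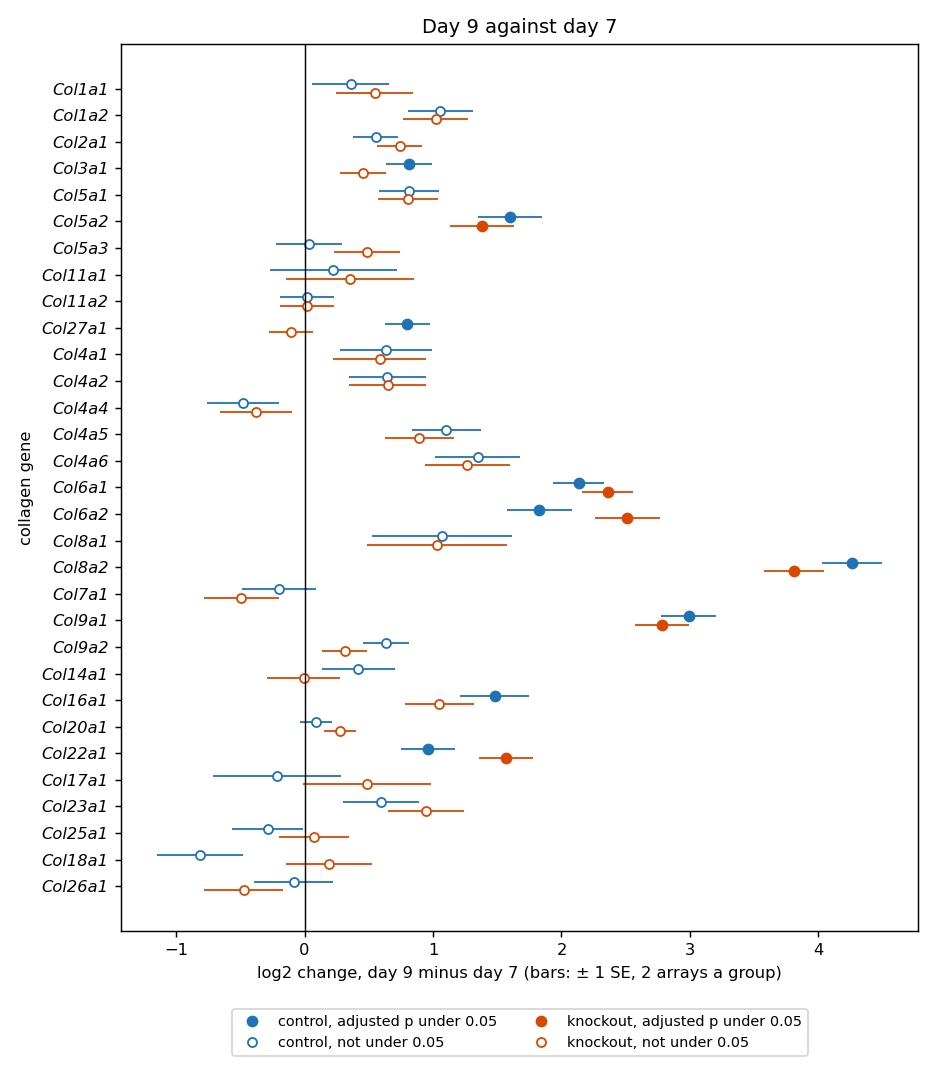
Log2 change from day 7 to day 9 (horizontal axis) for each of the 31 collagen genes, in control cells (blue) and knockout cells (orange), with bars of 1 SE either side. Filled points passed an adjusted p of 0.05, all of them to the right of 0, with Col8a2 farthest right at 4.26 and 3.81.

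Among the fibrillar collagens, 3 of the 10 measured genes rose with day in control cells and 1 in knockout cells. Col5a2, a chain of type V collagen, which starts fibrils and limits their width, stood at -2.32 and -2.81 on the control arrays and -1.998 and -2.35 on the knockout arrays of day 7, and -0.85 and -1.08 on the control arrays and -0.56 and -1.03 on the knockout arrays of day 9. All 4 day 9 arrays lay above the 4 day 7 arrays, and the change was 1.60 ± 0.25 (SE; adjusted p = 0.0206) in control cells and 1.38 ± 0.25 (SE; adjusted p = 0.0247) in knockout cells. Its partner chain Col5a1 changed by 0.81 (adjusted p = 0.0893) and 0.81 (adjusted p = 0.0894), which did not pass, and Col5a3 by 0.03 (adjusted p = 0.951) and 0.48 (adjusted p = 0.29). Without 1 of control day 9 replicate 1, control day 9 replicate 2 or control day 7 replicate 2, Col5a2 lost its call in control cells, with an adjusted p of up to 0.112. In knockout cells it lost the call without any 1 of the 4 knockout arrays, with an adjusted p of up to 0.133.

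Col3a1 encodes the chain of type III collagen, which lies beside type I in skin, vessels and meninges. Its level was 2.78 and 2.51 on the control arrays and 3.65 and 3.37 on the knockout arrays of day 7, and 3.33 and 3.59 on the control arrays and 4.04 and 3.89 on the knockout arrays of day 9. Control cells rose by 0.82 ± 0.18 (SE; adjusted p = 0.0465), and knockout cells, whose day 7 arrays overlapped the control arrays of day 9, changed by 0.45 ± 0.18 (SE; adjusted p = 0.172). The control call was lost when any 1 of the 8 arrays was left out, with an adjusted p of up to 0.218. Col27a1, a fibrillar collagen of cartilage, rose by 0.80 ± 0.17 (SE; adjusted p = 0.045) in control cells and changed by -0.10 (adjusted p = 0.736) in knockout cells, and this call was lost without any 1 array other than those of knockout day 7, with an adjusted p of up to 0.213.

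The type I chains are the main fibril collagens of bone, tendon and skin. Col1a2 changed with day by 1.06 (adjusted p = 0.0579) in control cells and 1.02 (adjusted p = 0.0601) in knockout cells, and Col1a1 by 0.36 (adjusted p = 0.494) and 0.55 (adjusted p = 0.302), none of which passed. Col2a1, the type II collagen of cartilage, changed by 0.55 (adjusted p = 0.111) and 0.74 (adjusted p = 0.0534). Col11a1 and Col11a2, chains of type XI collagen inside cartilage fibrils, had changes of 0.23 and 0.02 with day in control and 0.35 and 0.02 in knockout cells, with adjusted p of 0.691 or more.

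RefSeq promoter windows (GRCm38.p6, 250 bases before to 50 after an annotated start) were matched for 25 of the 31 genes, in 28 windows. Each was searched on both strands for 3 motifs. The core of the GC box, GGGCGG, was found on either strand in 20 of the 28 collagen windows, in 19 genes, and in 35.66% of all 32851 windows. The CCAAT box was found in 12 of the 28 and in 37.41% of all, and the TATAAA box in 3 of the 28 and in 13.62% of all. A match only says that these letters are in the window. The windows of Col1a2 (chr6:4505368-4505667, plus strand) and Col3a1 (chr1:45311288-45311587, plus strand) are shown since both genes were higher in knockout cells, with capitals for any of these motifs. That of Col1a2 holds 2 copies of CCAAT and 2 of GGGCGG and has 61.0% G and C, and that of Col3a1 holds 1 TATAAA and has 37.7%.
Col1a2: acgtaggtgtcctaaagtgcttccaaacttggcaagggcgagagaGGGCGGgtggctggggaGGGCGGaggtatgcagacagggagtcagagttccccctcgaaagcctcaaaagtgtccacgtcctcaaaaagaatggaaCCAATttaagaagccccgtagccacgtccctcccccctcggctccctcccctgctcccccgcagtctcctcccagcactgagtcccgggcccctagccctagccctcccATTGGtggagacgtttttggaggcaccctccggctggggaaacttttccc
Col3a1: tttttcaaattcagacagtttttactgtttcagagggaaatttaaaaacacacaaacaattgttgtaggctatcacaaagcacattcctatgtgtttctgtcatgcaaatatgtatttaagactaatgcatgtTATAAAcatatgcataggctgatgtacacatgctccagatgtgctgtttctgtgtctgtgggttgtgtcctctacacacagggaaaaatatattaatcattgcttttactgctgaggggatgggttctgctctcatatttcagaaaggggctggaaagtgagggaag

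The widest change with day among the collagens was that of Col8a2, a short-chain collagen that builds the hexagonal lattice of Descemet's membrane in the cornea. Its level was -2.24 and -2.27 on the control arrays and -2.46 and -2.55 on the knockout arrays of day 7, and 1.73 and 2.28 on the control arrays and 1.54 and 1.07 on the knockout arrays of day 9. Every day 9 array lay above every day 7 array by more than 3 log2 units, while the knockout arrays lay below the control arrays on each day. The rise was 4.26 ± 0.23 (SE; adjusted p = 0.00373) in control cells, a 19.2-fold change, and 3.81 ± 0.23 (SE; adjusted p = 0.00397) in knockout cells, a 14.0-fold change. The other kept probe of the gene rose by 3.33 (adjusted p = 0.00729) and 2.48 (adjusted p = 0.00801). On replicate 2 of each day 7 group that probe lay below the lowest signal well above background. It was thus kept only through day 9, where it is high. Col8a2 kept its call in both genotypes when any 1 array was left out.

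Its partner Col8a1 was less even between replicates than Col8a2 in every group but knockout day 9. Col8a1 stood at -3.81 and -4.89 on the control arrays and -2.40 and -3.57 on the knockout arrays of day 7, and -2.76 and -3.80 on the control arrays and -2.07 and -1.84 on the knockout arrays of day 9. Only 1 of the 2 control day 7 arrays was well above background. Col8a1 changed by 1.07 (adjusted p = 0.268) in control cells and 1.03 (adjusted p = 0.285) in knockout cells, without passing. The window before Col8a2 (chr4:126286544-126286843, plus strand) is shown since the gene had the largest change. It has 71.7% G and C and holds 4 copies of GGGCGG, counting both strands, in capitals, of which 1 pair overlaps.
Col8a2: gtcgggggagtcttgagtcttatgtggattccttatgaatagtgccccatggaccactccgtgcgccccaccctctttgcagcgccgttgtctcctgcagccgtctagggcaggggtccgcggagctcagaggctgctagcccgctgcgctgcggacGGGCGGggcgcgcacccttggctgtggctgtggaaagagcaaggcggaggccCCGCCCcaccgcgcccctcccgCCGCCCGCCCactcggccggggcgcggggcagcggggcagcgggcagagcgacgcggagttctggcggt

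Both measured chains of collagen VI, the beaded filament collagen that lies next to basement membranes in muscle and peripheral nerve, rose in both genotypes. Col6a1 stood at -1.58 and -1.75 on the control arrays and -1.08 and -1.21 on the knockout arrays of day 7, and 0.22 and 0.72 on the control arrays and 1.30 and 1.12 on the knockout arrays of day 9. The days did not overlap, and on each day knockout arrays lay above control arrays. The rise was 2.13 ± 0.20 (SE; adjusted p = 0.00718) in control cells and 2.36 ± 0.20 (SE; adjusted p = 0.00482) in knockout cells. Col6a2 stood at -4.23 and -4.14 on the control arrays and -4.04 and -4.05 on the knockout arrays of day 7, and -2.76 and -1.96 on the control arrays and -1.47 and -1.60 on the knockout arrays of day 9, with a rise of 1.83 ± 0.25 (SE; adjusted p = 0.0166) and 2.51 ± 0.25 (SE; adjusted p = 0.00619). The 2 control day 9 arrays of Col6a2 differed by 0.80, the widest gap of its groups.

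In knockout cells both calls held when any 1 array was left out. In control cells, without control day 7 replicate 2, the adjusted p was 0.0615 for Col6a1, and that of Col6a2 reached 0.0944 without one or the other control day 7 array. With a normexp background correction the control change of Col6a2 was 1.11 (adjusted p = 0.133). Col6a1 and Col6a2 are neighbours on chromosome 10. Their windows (Col6a1 at chr10:76725995-76726294, minus strand; Col6a2 at chr10:76623355-76623654, minus strand) are shown since the pair rose together. For Col6a2 only the window with the lowest chromosome position was taken. None of the 3 motifs is in the window of Col6a1, and the shown window of Col6a2 holds 3 copies of CCGCCC, of which 1 pair overlaps.
Col6a1: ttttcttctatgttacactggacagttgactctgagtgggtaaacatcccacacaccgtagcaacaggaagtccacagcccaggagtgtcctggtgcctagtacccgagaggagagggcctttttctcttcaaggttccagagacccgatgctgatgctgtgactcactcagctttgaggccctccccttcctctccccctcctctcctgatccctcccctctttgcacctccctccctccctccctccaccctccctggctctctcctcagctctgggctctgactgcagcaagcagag
Col6a2: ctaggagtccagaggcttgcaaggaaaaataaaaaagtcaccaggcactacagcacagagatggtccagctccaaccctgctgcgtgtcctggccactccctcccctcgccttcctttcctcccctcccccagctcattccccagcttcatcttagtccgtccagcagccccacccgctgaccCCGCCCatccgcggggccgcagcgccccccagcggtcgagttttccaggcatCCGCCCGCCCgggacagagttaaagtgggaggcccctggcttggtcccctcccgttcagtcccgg

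Among fibril-associated collagens, which coat fibrils without forming them, 3 of the 6 measured genes rose in control cells and 2 in knockout cells. Col9a1, a chain of the type IX collagen that covers cartilage fibrils and is also made in the eye, stood at -3.87 and -4.11 on the control arrays and -4.001 and -3.95 on the knockout arrays of day 7, and -1.26 and -0.74 on the control arrays and -1.05 and -1.33 on the knockout arrays of day 9. The 4 day 9 arrays lay more than 2 log2 units above the 4 day 7 arrays, and genotypes of a day overlapped. It rose by 2.99 ± 0.21 (SE; adjusted p = 0.00629) in control cells and 2.79 ± 0.21 (SE; adjusted p = 0.00482) in knockout cells. The second kept probe of Col9a1 did not rise: its changes were -0.44 (adjusted p = 0.377) and -0.13 (adjusted p = 0.809). The mean of both probes rose by 1.27 in control cells (adjusted p = 0.018). Without control day 7 replicate 2 the main probe rose by 2.87 in control cells, with an adjusted p of 0.0608.

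RefSeq lists 2 starts of Col9a1 among the windows, at chr1:24177360-24177659, plus strand and chr1:24194953-24195252, plus strand, and both windows are shown since the probes of the gene disagreed. Which start each probe reads was not tested. The upstream window holds none of the 3 motifs, and the downstream one holds 1 CCAAT, in capitals.
Col9a1 upstream start: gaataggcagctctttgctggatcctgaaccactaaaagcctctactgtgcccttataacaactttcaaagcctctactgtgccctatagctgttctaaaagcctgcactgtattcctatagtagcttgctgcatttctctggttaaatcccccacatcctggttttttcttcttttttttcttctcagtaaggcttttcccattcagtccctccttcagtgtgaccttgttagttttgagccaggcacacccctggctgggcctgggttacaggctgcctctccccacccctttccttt
Col9a1 downstream start: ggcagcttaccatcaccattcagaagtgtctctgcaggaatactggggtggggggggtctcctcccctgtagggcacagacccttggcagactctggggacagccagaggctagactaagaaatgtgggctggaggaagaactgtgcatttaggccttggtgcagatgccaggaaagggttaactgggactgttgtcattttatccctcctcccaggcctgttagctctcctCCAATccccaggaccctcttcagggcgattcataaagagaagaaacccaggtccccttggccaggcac

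The partner chain Col9a2 changed by 0.63 (adjusted p = 0.0844) in control cells and 0.31 (adjusted p = 0.324) in knockout cells. Col22a1, a collagen of tissue junctions such as that of muscle and tendon, stood at 2.32 and 2.10 on the control arrays and 2.09 and 1.51 on the knockout arrays of day 7, and 3.14 and 3.20 on the control arrays and 3.40 and 3.34 on the knockout arrays of day 9. Both genotypes were higher on day 9 without overlap, by 0.96 ± 0.21 (SE; adjusted p = 0.0452) and 1.57 ± 0.21 (SE; adjusted p = 0.00982). In control cells its call was lost without any 1 array other than those of knockout day 7 (adjusted p of up to 0.193), and in knockout cells without one or the other knockout day 9 array (up to 0.067). Col16a1, found at fibril surfaces and in dermal and cartilage matrix, rose by 1.48 ± 0.27 (SE; adjusted p = 0.0296) in control cells, and its change of 1.05 (adjusted p = 0.0644) in knockout cells did not pass. Its second kept probe rose by 1.63 in control cells (adjusted p = 0.0198). The control call of Col16a1 was lost without any 1 day 9 array or without control day 7 replicate 2 (adjusted p of up to 0.134). Col14a1 and Col20a1 were not called in either genotype, at 0.42 and 0.09 for control and -0.01 and 0.28 for knockout cells.

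The 5 measured chains of collagen IV, the sheet-forming collagen of basement membranes, gave 0 calls with day in limma's test, with 2 at an unadjusted p under 0.05 in each genotype. Col4a1 stood at 2.69 and 3.42 on the control arrays and 2.85 and 3.18 on the knockout arrays of day 7, and 3.24 and 4.14 on the control arrays and 3.73 and 3.48 on the knockout arrays of day 9, and Col4a2 at 2.49 and 3.28 on the control arrays and 2.64 and 2.79 on the knockout arrays of day 7, and 3.22 and 3.84 on the control arrays and 3.38 and 3.33 on the knockout arrays of day 9. In both genes the days overlapped in control cells, and the day 9 arrays lay above those of day 7 in knockout cells. Their changes were 0.63 (adjusted p = 0.318) and 0.65 (adjusted p = 0.235) in control cells, and 0.58 (adjusted p = 0.355) and 0.65 (adjusted p = 0.234) in knockout cells. Col4a5 and Col4a6, neighbours on the X chromosome whose chains form one of the collagen IV helices, were higher on day 9 with no overlap in both genotypes. Col4a5 changed by 1.105 (adjusted p = 0.060) and 0.89 (adjusted p = 0.0964) and Col4a6 by 1.35 (adjusted p = 0.0611) and 1.27 (adjusted p = 0.0676). The second kept probe of Col4a6 did not rise: its changes were -0.01 (adjusted p = 0.977) in control cells and -0.13 (adjusted p = 0.724) in knockout cells. Col4a4, a kidney collagen IV chain, cleared background on both arrays of the knockout groups and on 1 array in each control group.

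Col4a1 and Col4a2 are made from opposite strands of a shared promoter on chromosome 8, and their windows (Col4a1 at chr8:11312777-11313076, minus strand; Col4a2 at chr8:11312555-11312854, plus strand) overlap. They are shown as a pair with no call in any comparison, with capitals for the 78 bases they share. The annotated starts are 21 bases apart.
Col4a1: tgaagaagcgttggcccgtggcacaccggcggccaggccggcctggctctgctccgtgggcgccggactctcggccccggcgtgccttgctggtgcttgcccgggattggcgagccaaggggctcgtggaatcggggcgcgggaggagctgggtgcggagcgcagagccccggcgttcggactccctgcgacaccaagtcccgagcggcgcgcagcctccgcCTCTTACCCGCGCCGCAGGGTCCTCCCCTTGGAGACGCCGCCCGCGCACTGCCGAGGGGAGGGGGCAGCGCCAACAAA
Col4a2: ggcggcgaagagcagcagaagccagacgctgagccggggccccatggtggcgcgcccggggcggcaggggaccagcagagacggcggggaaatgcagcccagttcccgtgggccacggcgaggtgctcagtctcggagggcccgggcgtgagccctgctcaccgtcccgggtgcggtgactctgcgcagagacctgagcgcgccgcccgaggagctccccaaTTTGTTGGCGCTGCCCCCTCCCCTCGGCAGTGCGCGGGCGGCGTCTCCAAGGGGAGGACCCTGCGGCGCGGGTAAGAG

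The remaining classes gave 0 calls with day in limma's test, with 1 gene of them at an unadjusted p under 0.05 in each genotype. Col18a1, the basement membrane collagen from which endostatin is cut, stood at 5.19 and 4.69 on the control arrays and 5.08 and 4.59 on the knockout arrays of day 7, and 4.44 and 3.82 on the control arrays and 4.72 and 5.34 on the knockout arrays of day 9. Control cells were lower on day 9 with no overlap, by -0.81 (adjusted p = 0.185), and knockout cells changed by 0.19 (adjusted p = 0.749). Col7a1, which forms the anchoring fibrils under epithelia, changed by -0.20 and -0.49, and Col26a1 by -0.09 and -0.47. Of the transmembrane collagens, Col23a1 changed by 0.59 (adjusted p = 0.261) in control cells and 0.95 (adjusted p = 0.106) in knockout cells. Col25a1, a collagen of neurons known from amyloid plaques, changed by -0.29 and 0.07.

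Floor plate markers, all 6 kept, also differed between the days: their summed level was 108 to 110 in control cells and 70.6 to 71.6 in knockout cells on day 7, and 182 to 217 and 183 to 192 on day 9. Of these 6 genes, 5 rose with day in control cells, against 4.11% of all genes, and 6 in knockout cells, against 4.14%. The 6 measured of 8 mural and smooth muscle markers, without Myh11 and Rgs5, summed to 147 to 189, 135 to 136, 210 to 211 and 162 to 181 in control day 7, knockout day 7, control day 9 and knockout day 9. Mcam made up 74.2% to 92.7% of that sum. Of the 6, 3 rose with day in control cells (Tagln, Acta2 and Cspg4), and 1 rose and 1 fell in knockout cells (Tagln and Des). Des was well above background on both arrays in knockout cells on day 7 and in no other group. In knockout against control cells on day 7, limma called 0 of the 6, while 5 had a positive change, with a median of 0.69, and 4 were higher and 1 lower at an unadjusted p under 0.05. Only 5 of 10 chondrocyte markers were kept, without Comp, Matn1, Hapln1, Sox5 and Snorc, and they summed to 1.24 to 1.79, 1.93 to 2.05, 1.28 to 2.11 and 3.95 to 4.08 in the same order. Sox9 made up 70.9% to 87.6% of the chondrocyte sum, and with day 1 of the 5 rose (Sox6) and 1 fell (Matn3) in each genotype. The part of these cell types in the collagen changes with day was not tested.

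Knockout cells were then compared with control cells of the same day. On day 7 no collagen gene passed in limma's test (0 of 31), against 0.215% of all genes called, 0.0974% higher and 0.118% lower, while 10 were higher and 1 lower at an unadjusted p under 0.05, beside 18.9% of all genes in either direction. On day 9 only Col1a1 passed, higher in knockout cells, against 5.46% of all genes called, 1.5% higher and 3.96% lower, with 11 higher and 2 lower at an unadjusted p under 0.05, beside 25.7% of all genes. The median log2 change of the 31 genes was 0.38 on day 7, beside -0.05 over all genes, and 0.34 on day 9, beside -0.02. Knockout arrays lay above control arrays with no overlap in 13 collagen genes on day 7, where this held for 20.5% of all genes, and in 20 on day 9, where it held for 27.1%. Col17a1, kept only through knockout day 9, is among the 11 and the 20 of day 9. Col25a1, kept only through the knockout groups, is among the 20. The day 9 median of 0.34 is the value of Col4a4, which was also kept only through the knockout groups. They lay below with no overlap in 4 collagen genes on day 7, against 27.8% of all genes, and in 3 on day 9, against 32.5%.

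The mean of the knockout effects of both days sets 4 arrays against 4. By this measure 6 collagen genes were higher in knockout cells (Col1a1, Col1a2, Col3a1, Col4a6, Col6a1 and Col23a1) and 1 was lower (Col11a2), against 14.8% of all genes called, 5.48% higher and 9.35% lower. At an unadjusted p under 0.05, 13 were higher and 2 lower, beside 33.7% of all genes, and the 13 include Col17a1, kept only through knockout day 9. The median was 0.39 beside -0.04 over all genes. With each array scaled by its median in place of its 75th percentile, the median over all genes moved from -0.04 to 0.13. That of the collagens moved from 0.39 to 0.56. By this scaling 9 collagen genes were called higher and 1 lower. Calls over all genes also rose, from 3653 to 4604, and the higher ones among them from 1351 to 3294. The share of higher genes among all calls was 37.0% by the 75th percentile and 71.6% by the median, and 23 of the 31 collagen genes lay above the median of all genes by either scaling.

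Of the 7 calls in the mean of both days, 0 were left when knockout day 9 replicate 2 was dropped. Dropping control day 7 replicate 2, knockout day 7 replicate 1 or knockout day 9 replicate 1 gave 1 call in each case. The count was 2 when control day 9 replicate 1 was dropped, 3 for knockout day 7 replicate 2 and 4 for control day 7 replicate 1. On day 9 there were 0 calls without 1 of the knockout arrays of either day or without control day 9 replicate 1, and 2 without control day 9 replicate 2, neither of them Col1a1, whose adjusted p reached 0.174. Over all genes, leaving out 1 array took the calls in the mean of both days from 3653 to between 450 and 2716. Those on day 9 went from 1346 to between 7 and 804.

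**Figure D3:**
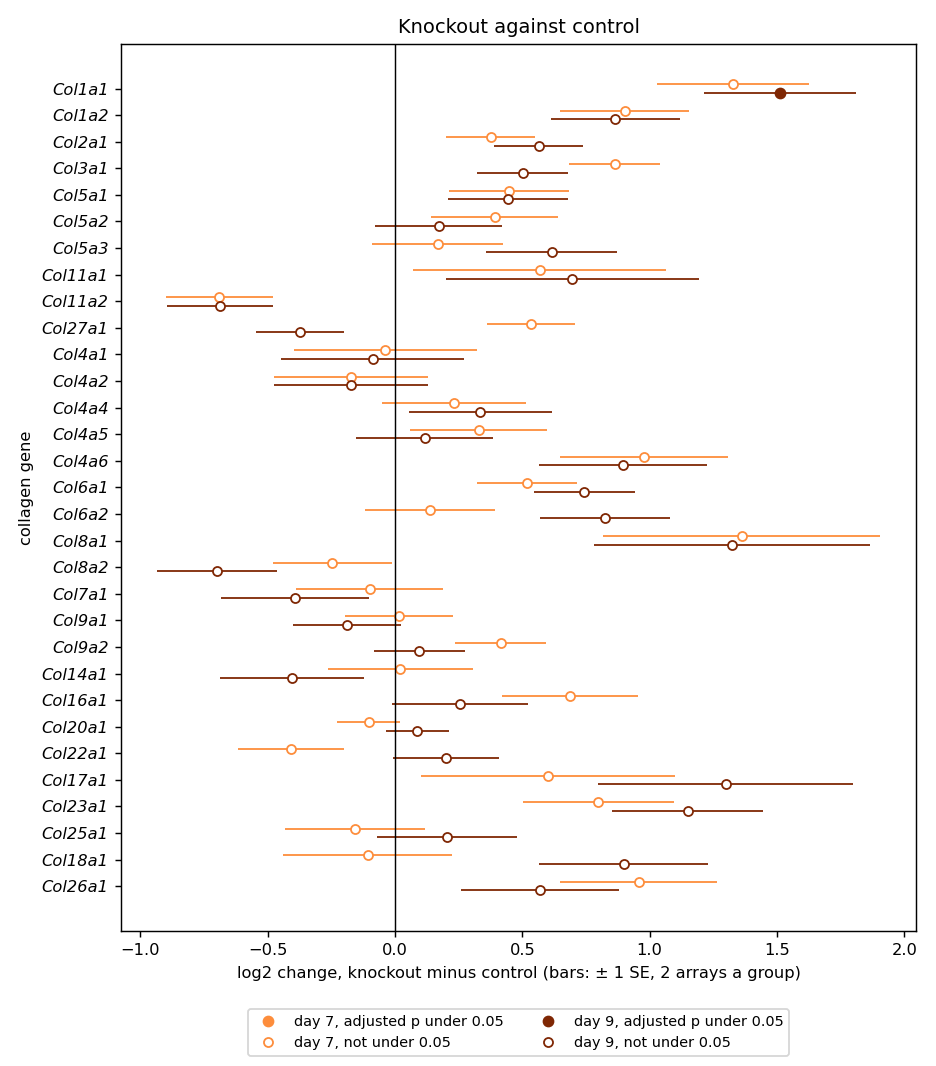
Log2 change in knockout against control cells (horizontal axis) for each collagen gene on day 7 (light) and day 9 (dark), with bars of 1 SE either side. Only Col1a1 on day 9, at 1.51, is filled, which marks an adjusted p under 0.05.

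In the fibrillar class, Col1a1 stood at 2.18 and 1.35 on the control arrays and 3.34 and 2.85 on the knockout arrays of day 7, and 2.05 and 2.21 on the control arrays and 3.75 and 3.53 on the knockout arrays of day 9. The 4 knockout arrays lay above the 4 control arrays. Knockout cells were higher by 1.33 ± 0.30 (SE; adjusted p = 0.11) on day 7, by 1.51 ± 0.30 (SE; adjusted p = 0.0418) on day 9, and by 1.42 ± 0.21 (SE; adjusted p = 0.0152) in the mean of both days. Col1a2, the other chain of type I collagen, stood at 3.81 and 3.27 on the control arrays and 4.70 and 4.18 on the knockout arrays of day 7, and 4.59 and 4.61 on the control arrays and 5.62 and 5.31 on the knockout arrays of day 9. It was higher in knockout cells on each day without overlap, and the mean effect was 0.88 ± 0.18 (SE; adjusted p = 0.0269), with 0.90 (adjusted p = 0.148) on day 7 and 0.86 (adjusted p = 0.0997) on day 9. Col3a1, whose levels are given above, was higher by 0.68 ± 0.13 (SE; adjusted p = 0.0225) in the mean, with 0.86 (adjusted p = 0.0981) on day 7 and 0.50 (adjusted p = 0.147) on day 9.

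The mean effect of Col1a1 lost its call without one or the other knockout day 9 array (adjusted p of up to 0.0564). That of Col1a2 was lost without 6 of the 8 arrays (up to 0.0842), the exceptions being control day 7 replicate 1 and knockout day 7 replicate 2. That of Col3a1 was lost without 5 arrays (up to 0.0727), namely knockout day 7 replicate 1, both replicate 1 arrays of day 9, control day 7 replicate 2 and knockout day 9 replicate 2.

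Fibroblast and mesenchyme markers also differed between the genotypes. With day, limma called 0 of the 12 markers higher and 1 lower in control cells, against 4.11% and 3.26% of all genes. In knockout cells it called 1 higher and 1 lower with day, against 4.14% and 4.17%. Of the 12, 6 were called higher and 0 lower in the mean of both days, against 5.48% and 9.35% of all genes, led by Thy1 (2.41 ± 0.21), Osr1 (1.58 ± 0.15) and Prrx1 (1.47 ± 0.25), and 3 were called higher on day 9, against 1.5% of all genes, which were Thy1, Osr1 and Pdgfrb. Col1a1 and Col23a1 lie on chromosome 11, as do Sox9, Fkbp10 and Mrc2, which are described further on, where the median change of the 1251 tested genes was 0.29 on day 7 and 0.38 on day 9, beside -0.02 and 0.04 for the 13786 genes elsewhere. In the mean of both days the median was 0.34 on chromosome 11 and 0.01 elsewhere, and 376 of the 1251 genes were called higher and 30 lower. The part of the mesenchyme markers and of chromosome 11 in the collagen changes was not tested.

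Col11a2 was the one collagen gene called lower, at -4.23 and -4.05 on the control arrays and -4.93 and -4.73 on the knockout arrays of day 7, and -4.23 and -4.02 on the control arrays and -4.55 and -5.08 on the knockout arrays of day 9. The 4 knockout arrays lay below the 4 control arrays, with -0.69 ± 0.21 on day 7, -0.69 ± 0.21 on day 9 and -0.69 ± 0.15 (SE; adjusted p = 0.0314) in the mean. With a normexp background correction the mean effect was -0.44 (adjusted p = 0.292), and the call was also lost without any 1 array other than knockout day 9 replicate 1, with an adjusted p of up to 0.0857. Its partner chain Col11a1 went the other way without passing, at 0.63 (adjusted p = 0.257).

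Of the other fibrillar genes, Col2a1 was higher by 0.47 (adjusted p = 0.0517) in the mean, just outside the threshold, and stood at 0.23 and 0.11 on the control arrays and 0.75 and 0.34 on the knockout arrays of day 7, and 0.70 and 0.75 on the control arrays and 1.18 and 1.40 on the knockout arrays of day 9. Knockout arrays were above control arrays on each day. Col5a1, Col5a2 and Col5a3 had mean effects of 0.45 (adjusted p = 0.117), 0.28 (adjusted p = 0.309) and 0.39 (adjusted p = 0.185). In the mean of both days 3 of the 5 kept chondrocyte markers were called higher in knockout cells and 0 lower, against 5.48% and 9.35% of all genes. These are Sox9, which lies on chromosome 11, Matn3, and Cnmd, which was well above background on all 4 knockout arrays and on 0 of the 4 control arrays and so was kept through the groups where it is high. Acan, the main proteoglycan of cartilage, had a mean effect of -0.44 (adjusted p = 0.233). The part of these markers in the Col2a1 value was not tested.

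**Figure D4:**
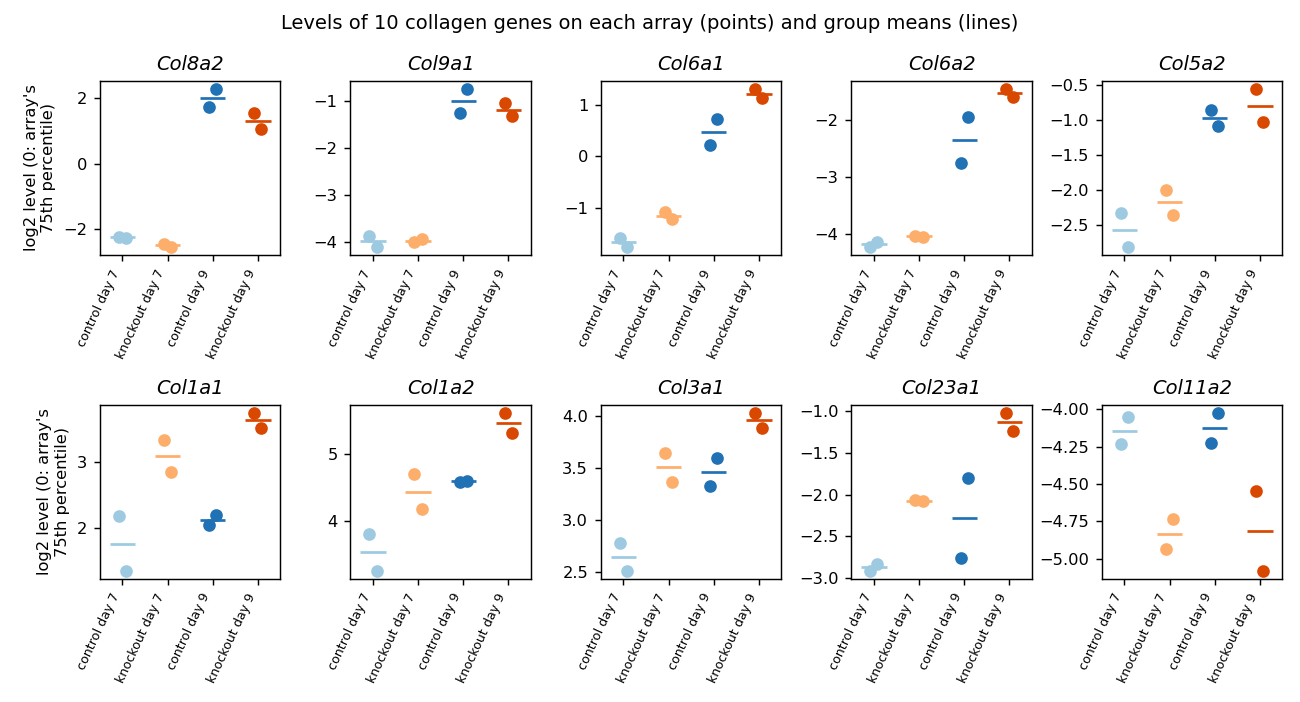
Log2 level (vertical axis, 0 at the 75th percentile of the array, its range set for each gene) of 10 collagen genes on each array, by group, with a line at the mean of each group. The upper row parts the days, with Col8a2 at or below -2.24 on day 7 and at or above 1.07 on day 9, and the lower row parts the genotypes, upward in all but Col11a2.

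In collagen IV, Col4a6 stood at -2.37 and -3.21 on the control arrays and -1.61 and -2.03 on the knockout arrays of day 7, and -1.71 and -1.18 on the control arrays and -0.41 and -0.69 on the knockout arrays of day 9, with knockout arrays above control arrays on each day. Its mean effect was 0.94 ± 0.23 (SE; adjusted p = 0.0449). The second kept probe of Col4a6 gave -0.01 (adjusted p = 0.961), the mean of both probes gave 0.46 (adjusted p = 0.0435), and the call was lost without any 1 array other than control day 7 replicate 1, with an adjusted p of up to 0.124. The chain that lies next to it, Col4a5, had a mean effect of 0.22 (adjusted p = 0.45). Col4a1 and Col4a2 had -0.06 (adjusted p = 0.886) and -0.17 (adjusted p = 0.606), with overlapping groups on both days.

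Col6a1 was higher in knockout cells by 0.52 ± 0.20 on day 7 and 0.74 ± 0.20 on day 9, with a mean of 0.63 ± 0.14 (SE; adjusted p = 0.0336). The call was lost without any 1 array other than control day 9 replicate 2, with an adjusted p of up to 0.0988. Col6a2 was higher by 0.14 (adjusted p = 0.815) and 0.82 (adjusted p = 0.111), and its mean of 0.48 (adjusted p = 0.117) did not pass. The day 9 comparison and the day comparison in control cells share the control day 9 arrays, so the values of these genes in the comparisons are not independent.

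Col23a1, a transmembrane collagen that can be shed from the cell surface, stood at -2.91 and -2.83 on the control arrays and -2.07 and -2.08 on the knockout arrays of day 7, and -2.76 and -1.80 on the control arrays and -1.02 and -1.24 on the knockout arrays of day 9. Knockout arrays were above control arrays on each day, and the control day 9 arrays differed by 0.96. The mean effect was 0.97 ± 0.21 (SE; adjusted p = 0.0314). All 3 kept probes were higher in knockout cells, by 0.97 (adjusted p = 0.0332), 1.18 (adjusted p = 0.0073) and 0.88 (adjusted p = 0.0805) when each was tested on its own. The probe with 1.18 lay below the lowest signal well above background on every control array and on knockout day 7 replicate 2. It was thus kept only through knockout day 9, where it is high. The call of the mean effect, made on the probe with 0.97, was lost without 6 of the 8 arrays, the exceptions being both control day 9 arrays, with an adjusted p of up to 0.0934.

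Col17a1, which anchors epithelial cells at hemidesmosomes, was well above background on both knockout day 9 arrays, on 1 array in each day 7 group and on neither control day 9 array. Its levels were -6.05 and -6.91 on the control arrays and -5.47 and -6.29 on the knockout arrays of day 7, and -6.91 and -6.47 on the control arrays and -6.00 and -4.79 on the knockout arrays of day 9. No fold is given against the control day 9 group, where it was not well above background. Col25a1 had a mean effect of 0.03 (adjusted p = 0.942).

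In the other classes no gene passed in the mean of both days by limma's test, with 3 higher and 1 lower at an unadjusted p under 0.05. Col8a1 had the second largest mean effect of the 31 genes, 1.34 ± 0.38 (SE; adjusted p = 0.0624), and Col8a2 went the other way at -0.47 (adjusted p = 0.102). Col26a1 stood at 3.18 and 2.51 on the control arrays and 4.08 and 3.52 on the knockout arrays of day 7, and 3.04 and 2.48 on the control arrays and 3.32 and 3.33 on the knockout arrays of day 9, higher in knockout cells on each day, with a mean of 0.76 (adjusted p = 0.0629). Col18a1 did not part the genotypes on day 7 and was higher in knockout cells on day 9 without overlap, by 0.90 (adjusted p = 0.157). Among the fibril-associated genes, Col16a1 had 0.47 (adjusted p = 0.137), Col9a2 0.26 (adjusted p = 0.209), Col14a1 -0.19 (adjusted p = 0.538), Col22a1 -0.10 (adjusted p = 0.656), Col9a1 -0.09 (adjusted p = 0.718) and Col20a1 -0.01 (adjusted p = 0.959). Col7a1 had -0.25 (adjusted p = 0.439).

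**Figure D5:**
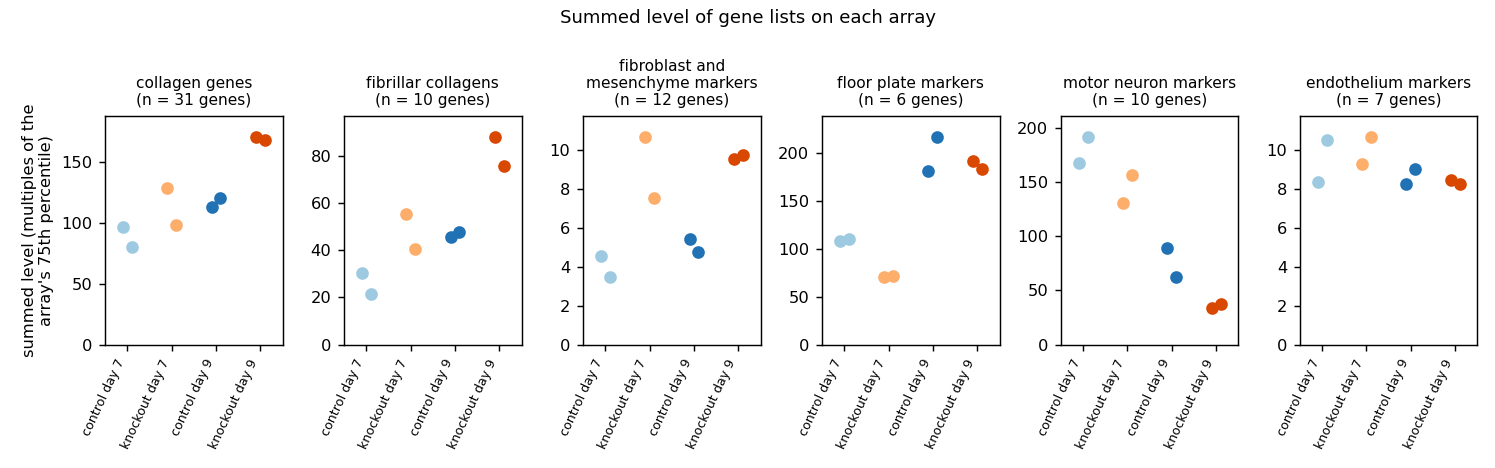
Summed level of 6 gene lists (vertical axes from 0, in multiples of the 75th percentile of the array) on each of the 8 arrays, by group. The collagen and fibrillar sums are highest on the knockout day 9 arrays, at 168 to 171 and 75.8 to 88.3, the mesenchyme sum parts the genotypes, the floor plate sum parts the days, and the motor neuron sum is lowest in knockout cells on day 9.

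The knockout effect was compared between days by an interaction term. No collagen gene passed in limma's test (0 of 31), against 0.00406% of all genes called, and 1 had an unadjusted p under 0.05, beside 6.0% of all genes. That gene was Col27a1, which stood at -2.997 and -2.97 on the control arrays and -2.65 and -2.25 on the knockout arrays of day 7, and -2.28 and -2.08 on the control arrays and -2.61 and -2.50 on the knockout arrays of day 9. Knockout cells were above control cells on day 7, by 0.53 ± 0.17, and below them on day 9, by -0.37 ± 0.17, with no overlap on either day. The difference of the effects was -0.91 ± 0.24 (SE; adjusted p = 0.751). Col18a1 had a difference of 1.00 ± 0.47 (SE; adjusted p = 0.847) and Col6a2 of 0.69 ± 0.36 (SE; adjusted p = 0.85). The 1 call on day 9 against 0 on day 7 is therefore not shown to be a difference between days: for Col1a1 it was 0.19 ± 0.42 (SE; adjusted p = 0.968).

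Genes that make, bind and break down collagen were measured with the same fit. Of 33 listed genes of collagen synthesis and cross-linking, 31 were tested, and 12 rose with day in control cells and 8 in knockout cells, with 0 falling in either. Of all genes tested, 4.11% were called higher and 3.26% lower with day in control cells. The shares were 4.14% and 4.17% in knockout cells. Lox, the enzyme that starts cross-linking by oxidising lysyl residues, rose by 3.37 ± 0.52 (SE; adjusted p = 0.020) and 2.76 ± 0.52 (SE; adjusted p = 0.0279), and was well above background on only 1 of the 2 arrays in each day 7 group, so that it was kept through day 9. P4ha3, a subunit of prolyl 4-hydroxylase, rose by 1.73 ± 0.21 (SE; adjusted p = 0.0117) in control cells, and Colgalt2, which adds galactose to hydroxylysine, by 2.46 ± 0.19 (SE; adjusted p = 0.00482) in knockout cells. Between genotypes, Loxl1, a lysyl oxidase relative known from elastic fibres, was higher in knockout cells on day 9 by 0.97 ± 0.16 (SE; adjusted p = 0.032). In the mean of both days 5 were higher and 1 lower, which is 19.4% of the list beside 14.8% of all genes. Among them were Fkbp10, a collagen chaperone (1.06 ± 0.23), Loxl1 (1.04 ± 0.12) and Colgalt2 (-0.84 ± 0.14).

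The shares of all genes given for the synthesis genes also stand beside the counts of the lists that follow, with 1.5% called higher and 3.96% lower between genotypes on day 9. Of 11 collagen receptors, 8 were tested. With day, 2 rose in control cells and 4 in knockout cells. These included Ddr2, a receptor tyrosine kinase for fibrillar collagen (2.15 ± 0.25 and 1.69 ± 0.25), and Itga1, the collagen-binding integrin subunit (2.12 ± 0.38 and 1.92 ± 0.38). Itga1 was well above background on only 1 of the 2 arrays in each day 7 group, and was kept through day 9, where it is high. Mrc2, which takes up collagen fragments, was the one receptor called between genotypes, higher by 0.95 ± 0.15 (SE; adjusted p = 0.0175) in the mean of both days. It lies on chromosome 11. Of 10 genes of collagen breakdown and its inhibitors, 7 were tested, and 2 rose and 1 fell with day in control cells and 3 rose in knockout cells. Mmp2, a gelatinase, rose by 1.79 ± 0.20 and 1.15 ± 0.20. In the mean of both days 4 were higher in knockout cells, led by the inhibitor Timp1 (0.99 ± 0.15), the membrane collagenase Mmp14 (0.92 ± 0.18) and Mmp2 (0.68 ± 0.14), and on day 9 Ctsk (0.91 ± 0.16), a collagen-cleaving cathepsin, and Timp3 (0.72 ± 0.14).

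Matrix partners of fibrils, 10 tested of 12, gave 4 rises with day in control cells and 3 in knockout cells. Dcn, a proteoglycan that binds fibrils, rose by 2.14 ± 0.30 in control cells, and Postn, a matrix protein of collagen-rich tissue, by 2.58 ± 0.31 in knockout cells. Tnc was not well above background in either day 7 group, so its rise is given as at least 1.81-fold in control cells (adjusted p = 0.0159) and at least 2.83-fold in knockout cells (adjusted p = 0.0145), against the lowest signal well above background. Knockout cells had more Postn on day 9, by 1.51 ± 0.31 (SE; adjusted p = 0.0441), and more Lum (1.36 ± 0.21), Postn (1.29 ± 0.22) and Dcn (0.86 ± 0.21) in the mean of both days.

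All 12 basement membrane partners of collagen IV were tested. Lama4, the laminin chain of vessel and peripheral nerve basement membranes, rose with day by 1.65 ± 0.18 in control cells and 1.92 ± 0.18 in knockout cells and was higher in knockout cells on day 9 by 1.36 ± 0.18 (SE; adjusted p = 0.0203). Lamb2 rose by 1.23 ± 0.12 in control cells, and Nid2, which links laminin to collagen IV, by 1.16 ± 0.21 in knockout cells. In the mean of both days Lama4 (1.23 ± 0.13) and Lama2 (0.99 ± 0.16) were higher in knockout cells, beside 1 collagen IV chain of 5. On day 7 none of these 5 lists had a call between genotypes by limma's test, with 18 genes higher and 4 lower at an unadjusted p under 0.05.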

How the data were processed

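RNA was measured on 8 one-colour Agilent arrays of 1 slide, per the labels and the file headers. The authors deposited the scanner output, whose processed signals are background-subtracted spot intensities. The submitters' processing notes name Feature Extraction 10.5.1. They also deposited a table of log2 values, used as an alternative; its 8 columns have a median of 5.80 each, and its offset is unknown.

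Control spots (3671 per array) and outlier flags were left out, and the log2 processed signal minus the 75th percentile of each array was the value. A probe was kept (33189 were) if it cleared background on each of the 2 arrays of some group, and the kept probe with the highest mean stood for a gene. A symbol was found for 47.2% of 55681 probes through RefSeq accessions (table on GRCm38.p6; array positions are on another build and are not used here). All 8 arrays entered 1 limma fit (limma 3.58.1, R 4.3.3; lmFit and eBayes, two-sided) with a mean for each of the 4 groups (degrees of freedom: residual 4, prior 2.53). Benjamini-Hochberg adjustment was made over 24633 genes, and a call is an adjusted p under 0.05. The fit was tested on simulated data. Where no array of a group cleared background, a fold is given as a bound.

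The members and lists were chosen with earlier results of these data known. All kept collagen genes are named; of other lists, up to 3 called genes with the largest change per genotype comparison and up to 2 per day comparison. Same-numbered arrays of different groups had deviations that correlated between -0.25 and 0.46, so replicate numbers were not taken as pairs. Alternatives were other scalings and background correction, no filter, other probe choices, a replicate block, separate fits and leaving out each array. The number of arrays limits the precision. The files hold no mean signal column, so normexp, chosen after seeing the data, ran on the median signal.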

Additional observations from a re-analysis of the deposited data

How the results depend on the processing

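Of 361 values of the 23 called collagen changes under the alternatives, 0 reversed, 240 kept their call and 121 lost it. Col8a2 in both genotypes, and Col6a1, Col6a2 and Col9a1 in knockout cells, kept their call with day under all 16 alternatives. The 9 calls with day in control cells became 5 with normexp, 3 with no filter on dim probes and 3 with only the arrays compared, and 1 to 8 with 1 array left out. Over all genes the calls with day in control cells fell from 1814 to 673 with normexp, and to between 8 and 1306 with 1 array left out. The 6 calls with day in knockout cells ranged from 4 to 7 with 1 array left out. The 1 call for genotype on day 9 became 0 with normexp, quantile normalization, the deposited log2 table, no filter or only the arrays compared, 3 with median scaling, and 0 to 2 with 1 array left out. The 7 calls for the mean genotype effect became 0 with no filter, and 0 to 5 with 1 array left out. Day 7 and the interaction had 0 calls under every alternative run. Over all genes, calls for genotype on day 9 fell from 1346 to 310 with normexp and 1 with no filter. They were 1095 with quantile normalization, 1093 with the deposited log2 table and 1749 with median scaling. The cause of these shifts was not tested.

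The replicate number as a block gave 10 calls with day in control cells and 9 in knockout cells, 2 for genotype on day 9 and 10 for the mean effect. Of the 23 calls only that of Col3a1 with day in control cells was lost (adjusted p = 0.0505). Same-numbered arrays deviated together in some pairs of groups and not in others, so the numbers were not taken as pairs. With crossed numbers as a block on the 4 day 9 arrays, chosen after seeing the data, 1 collagen gene was called. With 2 arrays a group, dim or uneven genes such as Col8a1, Col17a1 and Col11a1 had wide replicate gaps, and no detection limit was computed. Even a change wider than these gaps could go without a call. Col8a1 was higher in knockout cells on day 7 by 1.36, beside gaps of 1.08 and 1.17, and did not pass in limma's test (adjusted p = 0.249).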
